A study of Mus musculus with 4 samples.

Results

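The genes of ribosome biogenesis were examined in bone marrow-derived macrophages (BMMs) that were cultured with RANKL and either dimethyl itaconate (DI) or vehicle. The members were the genes whose KEGG annotation in the deposited table holds the pathway "Ribosome biogenesis in eukaryotes", which were 77 of the 34745 genes listed. Of these, 70 had enough reads to be tested. BMMs were primary monocytes and macrophages of wt C57BL/6 mice aged 8 weeks. They were kept without serum for 12 h, then received complete medium with RANKL at 100 ng/mL for 24 h in both groups, so no library shows cells without RANKL. DI, a membrane-permeable ester of the macrophage metabolite itaconate, was added in the RANKL+DI group, and its vehicle (DMSO) in the RANKL+Veh group. The labels give the dose of DI as 20 mM and the study's methods as 20 μM. RANKL is the cytokine that turns macrophages into bone-resorbing osteoclasts. mRNA was sequenced in 2 libraries per group, and the sources do not say whether the 2 libraries came from separate mice or cultures, so the p-values measure only the spread between these samples. The total was 17843712 and 19403480 counts in the RANKL+DI libraries and 17979114 and 16085692 counts in the RANKL+Veh libraries.

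Ribosomes are built in the nucleolus, where RNA polymerase I transcribes the precursor of the ribosomal RNAs. Box C/D snoRNPs methylate this precursor and box H/ACA snoRNPs convert uridines to pseudouridine, while the UTP subcomplexes and the U3 snoRNP fold it into the small subunit processome. Nucleases including RNase MRP cut it, GTPases and AAA ATPases mature the large subunit, and exportin with Ran carries both subunits to the cytoplasm for their last steps. Growing and dividing cells make many ribosomes, and the transcription factor MYC is known to activate many genes of this pathway.

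Most members of the pathway stood lower with DI than with vehicle, by a small amount per gene. Of the 70 tested members, 66 had a log2 fold change below 0, where 49.8% of the 12590 tested genes did. At an adjusted p under 0.05, 19 members fell and 0 rose in edgeR's test. At an unadjusted p under 0.05 these numbers were 37 and 1, and edgeR's exact test, the DESeq2 Wald test and limma-voom called 12, 15 and 20 members lower and 0 higher. With 1 library left out, edgeR's test called 11 members without RANKL+DI replicate 1, 12 without RANKL+DI replicate 2, 9 without RANKL+Veh replicate 1 and 8 without RANKL+Veh replicate 2, all lower. Among all tested genes, 7.7% fell and 7.14% rose, 14.8% in all. The median log2 fold change of the members was -0.19, beside 0.0012 over all tested genes. Relative to the mean of the RANKL+Veh libraries, the median member stood at -0.19 and -0.18 in the RANKL+DI libraries and at 0.0045 and -0.0045 in the RANKL+Veh libraries. Both RANKL+DI libraries lay below both RANKL+Veh libraries for 52 members, 1 member lay above (Rexo2), and 17 overlapped; over all tested genes 29.6% were separated downward and 29% upward. Among genes of at least 10 CPM on average, 19 of 67 members fell, beside 858 of 8821 genes. These levels are CPM, counts scaled to a common library total with TMM factors. Scaled by the library total alone, 37 members fell and 0 rose, and 69 were below 0, while all genes together split into 1932 lower and 548 higher calls, beside 969 and 899 with TMM, and their median moved to -0.10. In bulk RNA, fewer cells of a type and less RNA per cell cannot be told apart.

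**Figure D1:**
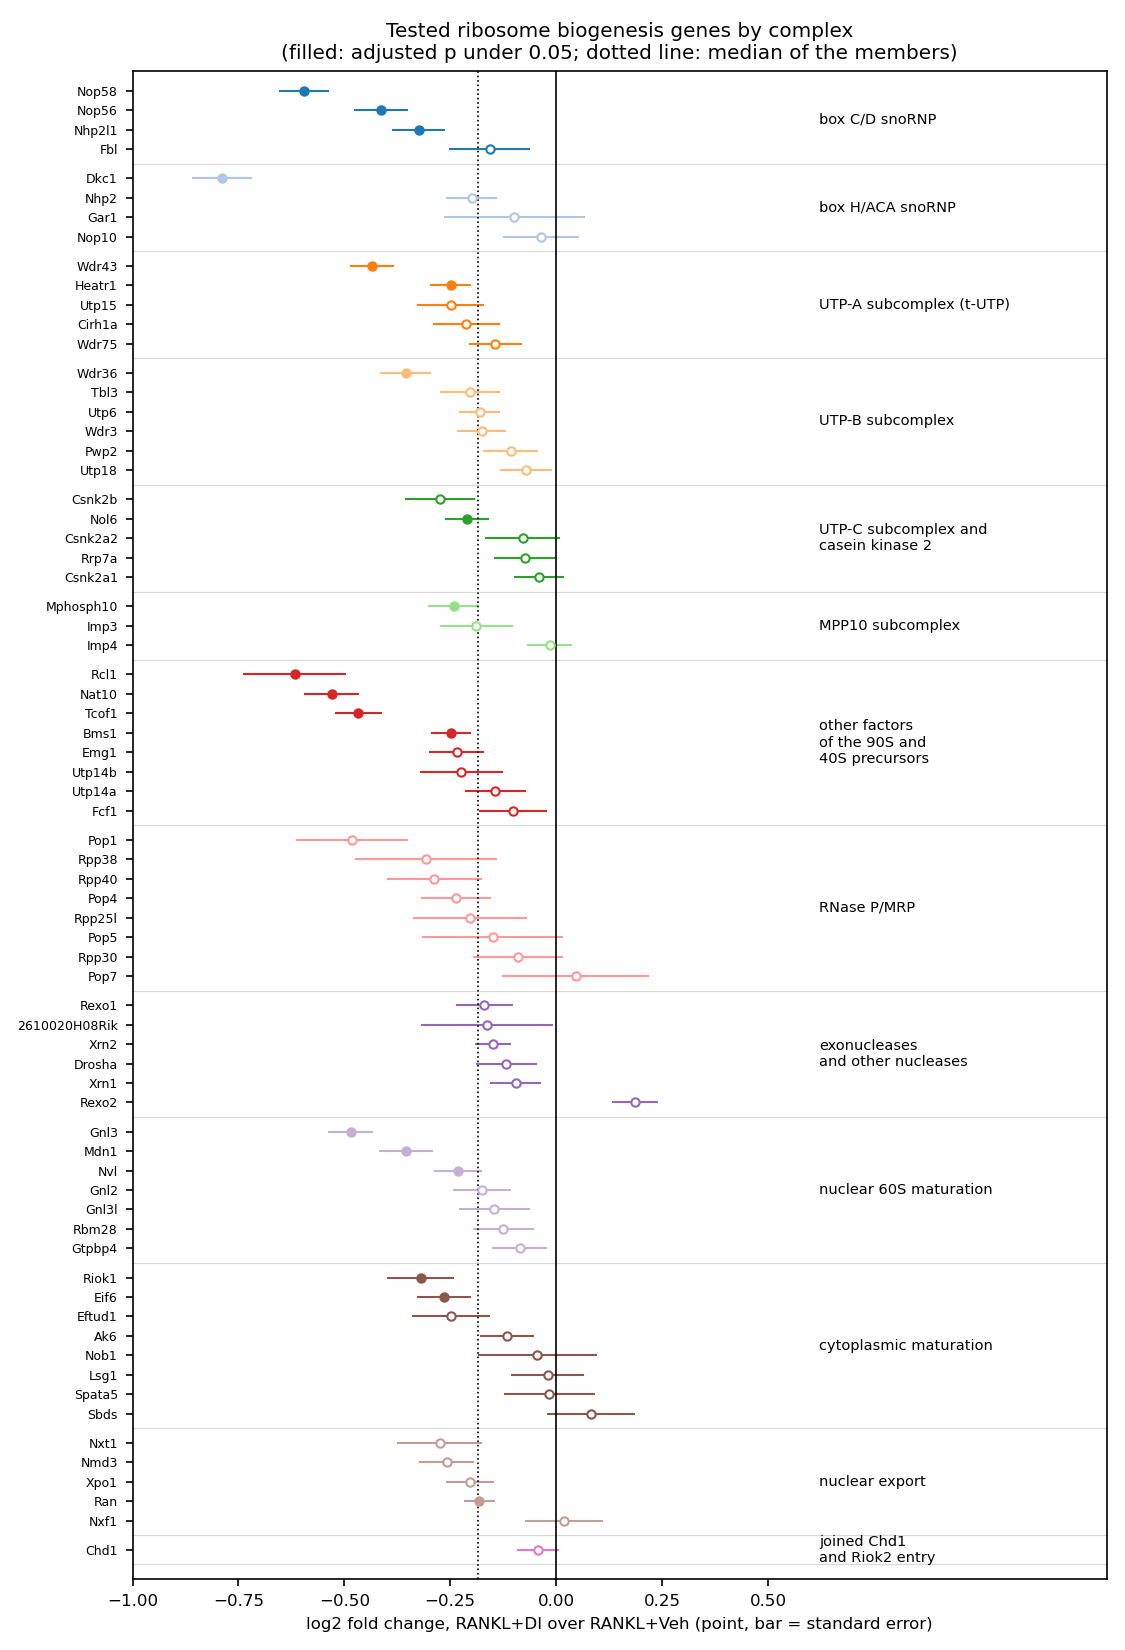
Log2 fold change of each of the 70 tested members, RANKL+DI over RANKL+Veh, by complex, with bars of 1 standard error and filled points at an adjusted p under 0.05. Nearly all points lie left of 0, the dotted line marks the median of -0.19, and Dkc1 at -0.79 lies farthest to the left.

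The box C/D snoRNP, the enzyme that methylates ribosomal RNA at sites chosen by its guide snoRNA, had the lowest median of the complexes, -0.37, and 3 of its 4 tested proteins fell. Nop58 (ENSMUSG00000026020, chr1:59684971-59719044 on the plus strand of GRCm38), a core protein that clamps the guide RNA, was at 52.5 and 55.1 CPM in the RANKL+DI libraries and 81.1 and 81.4 CPM in the RANKL+Veh libraries. Its level fell by 33.8%, a log2 fold change of -0.59 with a standard error (SE) of 0.0591 and an adjusted p of 0.00298. Nop56 (ENSMUSG00000027405, chr2:130274430-130279313 on the plus strand of GRCm38), its partner in the clamp, was at 52.3 and 54.1 CPM with DI and 72.8 and 68.7 CPM with vehicle. The fold change of Nop56 was -0.41 on the log2 scale (SE 0.0636, adjusted p = 0.0110). Nhp2l1, the small protein (also named Snu13) that binds the kink turn of the guide, was at 67.3 and 63.4 CPM against 84.02 and 79.7 CPM and fell as well (log2 fold change -0.32, SE 0.0629, adjusted p = 0.0227). In these 3 genes the groups did not overlap. Fibrillarin (Fbl), the methyltransferase itself, did not pass the test: it was at 36.8 and 39.5 CPM with DI and 45.9 and 39.1 CPM with vehicle, so that the groups overlapped. The log2 fold change of Fbl was -0.16 (95% interval -0.39 to 0.078, adjusted p = 0.334), an interval that holds the estimate for Nhp2l1 but not those for Nop56 and Nop58. The call of Nhp2l1 was lost without RANKL+DI replicate 2, RANKL+Veh replicate 1 or RANKL+Veh replicate 2, with an adjusted p of up to 0.0837. A processed pseudogene matches 20.4% of the Nop56 transcript at 99.7% identity.

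In the box H/ACA snoRNP, which makes pseudouridine and also belongs to telomerase, 1 of 4 core proteins fell, and that was the member with the lowest log2 fold change of the pathway. Dkc1 (ENSMUSG00000031403, chrX:75095854-75109777 on the plus strand of GRCm38) encodes dyskerin, the pseudouridine synthase. It was at 28.5 and 30.8 CPM with DI and 51.8 and 50.8 CPM with vehicle, a gap far wider than that between libraries of a group. The level of Dkc1 fell by 42.1% (log2 fold change -0.79, SE 0.0702, adjusted p = 0.00215). Its partner Nhp2 was at 79.7 and 84.9 CPM against 97.01 and 92.04 CPM, with groups that did not overlap, and stayed short of the threshold (log2 fold change -0.20, 95% interval -0.35 to -0.053, adjusted p = 0.0805). Gar1 and Nop10, the remaining core proteins, overlapped between groups. Gar1 had a log2 fold change of -0.099 with a 95% interval of -0.51 to 0.31, and was at only 11.4 and 8.85 CPM with DI and 9.88 and 11.8 CPM with vehicle. Nop10 had a log2 fold change of -0.036 with a 95% interval of -0.26 to 0.19. The interval of Dkc1, -0.96 to -0.62, did not reach the intervals of these 3 partners. Whether the fold changes of the subunits differ was not tested beyond these intervals.

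The UTP subcomplexes and the MPP10 subcomplex, which assemble on the 5′ part of the precursor, held 19 tested members, of which 19 were below 0, 5 fell and 15 had groups that did not overlap. In UTP-A, the subcomplex that binds first and is also linked to transcription of ribosomal DNA, the median log2 fold change was -0.25 and both groups were separated in 5 of 5 genes. Wdr43 (ENSMUSG00000041057, chr17:71616215-71659031 on the plus strand of GRCm38), the homologue of yeast Utp5, was at 70.9 and 70.9 CPM with DI and 94.5 and 97.2 CPM with vehicle. Wdr43 fell with a log2 fold change of -0.44 (SE 0.0517, adjusted p = 0.00486). Heatr1, a large HEAT-repeat protein and the homologue of Utp10, fell from 117 and 119 CPM to 97.5 and 101 CPM (log2 fold change -0.25, adjusted p = 0.0211). The other members of UTP-A, Utp15, Cirh1a and Wdr75, lay between -0.25 and -0.14 and were not called. Heatr1 lost its call without RANKL+DI replicate 1 or either RANKL+Veh replicate (adjusted p up to 0.0974).

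UTP-B, a scaffold of WD-repeat proteins, had a median of -0.18, again with separated groups in 6 of 6 genes. Its lowest gene was Wdr36, the homologue of Utp21, at 57.9 and 58.8 CPM with DI and 73.01 and 76.4 CPM with vehicle (log2 fold change -0.36, SE 0.0593, adjusted p = 0.0142). Without RANKL+Veh replicate 2 the adjusted p of Wdr36 was 0.0618. The other 5 genes of UTP-B ranged from -0.20 for Tbl3 to -0.071 for Utp18 and were not called. Tbl3 shares 37.3% of its exon length with Noxo1 on the opposite strand, at 7 counts per library for Noxo1. In UTP-C and casein kinase 2, whose kinase phosphorylates many nucleolar proteins, the median was -0.079 and 1 of 5 members, Nol6, fell. This median rested on single libraries: it was -0.026 without RANKL+DI replicate 1, -0.19 without RANKL+DI replicate 2 and -0.15 without RANKL+Veh replicate 2. Nol6, the homologue of Utp22, was at 71.5 and 72.3 CPM against 83.5 and 82.9 CPM (log2 fold change -0.21, adjusted p = 0.0484). The regulatory subunit Csnk2b was at 64.8 and 63.3 CPM against 83.2 and 71.7 CPM, with an adjusted p of 0.0828. The catalytic subunits overlapped between groups, with log2 fold changes of -0.041 for Csnk2a1 (95% interval -0.18 to 0.10) and -0.079 for Csnk2a2 (95% interval -0.30 to 0.14). Csnk2a1 has a copy, Gm10031, that matches 63.0% of its transcript at 99.6% identity, so its count is uncertain. In the MPP10 subcomplex the scaffold Mphosph10 fell, from 62.8 and 62.6 CPM to 54.01 and 52.00 CPM (log2 fold change -0.24, adjusted p = 0.0473), while Imp4, which joins it on the U3 RNA, had a log2 fold change of -0.015 (95% interval -0.15 to 0.12). Imp3, its partner at the pairing of the U3 RNA with the precursor, was at 20.2 and 21.97 CPM with DI and 24.3 and 23.8 CPM with vehicle (-0.19, 95% interval -0.40 to 0.024, adjusted p = 0.211). Imp3 had the highest deposited FPKM of the 3 (24.5). In CPM Imp4 stood higher, at 73.99 and 75.5 with DI and 75.3 and 75.8 with vehicle. The length behind the FPKM of Imp4 exceeds the span of its gene. A transcribed processed pseudogene matches 64.5% of the Imp3 transcript. Nol6 and Mphosph10 each lost the call when any single library was left out, with adjusted p of up to 0.174 and 0.175.

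The remaining factors of the 90S and 40S precursors had a median of -0.24, and 4 of 8 fell, with separated groups in 8 of 8. Nat10 (ENSMUSG00000027185, chr2:103721256-103761270 on the minus strand of GRCm38), the cytidine acetyltransferase of 18S rRNA, was at 33.6 and 34.8 CPM with DI and 49.98 and 48.7 CPM with vehicle. Nat10 fell by 30.7% (log2 fold change -0.53, SE 0.0643, adjusted p = 0.00520). Tcof1 encodes treacle, a nucleolar protein that links RNA polymerase I to processing and is mutated in Treacher Collins syndrome. Its level was 65.5 and 68.1 CPM with DI and 91.5 and 93.1 CPM with vehicle (log2 fold change -0.47, SE 0.0545, adjusted p = 0.00465). The GTPase Bms1 and its partner Rcl1 both fell. Bms1 went from 107 and 106 CPM to 88.8 and 90.1 CPM, a log2 fold change of -0.25 (adjusted p = 0.0210). Rcl1 went from 19.97 and 19.5 CPM to 11.6 and 14.1 CPM, a larger but less precise log2 fold change of -0.62 (SE 0.122, adjusted p = 0.0242). Bms1 lost its call when any single library was left out (adjusted p up to 0.0867), and Rcl1 without RANKL+DI replicate 1 or either RANKL+Veh replicate (up to 0.0814). Not called were Emg1, the methyltransferase of a hypermodified pseudouridine in 18S rRNA (-0.24, adjusted p = 0.0631), and Fcf1, a PIN-domain endonuclease (-0.10, adjusted p = 0.453), of whose transcript a processed pseudogene matches 79.7%.

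RNase P and RNase MRP share most of their protein subunits, and none of the 8 tested subunits passed the test in the edgeR fit, although 7 were below 0, 5 had separated groups and the median was -0.22. Pop1, the largest subunit, came nearest, at 15.03 and 12.96 CPM with DI and 21.2 and 17.8 CPM with vehicle (log2 fold change -0.48, 95% interval -0.81 to -0.16, adjusted p = 0.0641). Its adjusted p was 0.0387 in edgeR's exact test and 0.0249 without the filter on low counts. At an unadjusted p under 0.05, 3 subunits passed, Pop1, Pop4 and Rpp40, and DESeq2 and limma-voom called 0. The subunits were of low abundance, from 5.59 and 4.53 CPM with DI for Rpp38 to 26.04 and 24.2 CPM for Pop4, and their intervals were wide: that of Rpp38 was -0.72 to 0.10 and that of Pop7 -0.38 to 0.47. Rpp30, the subunit with the highest deposited FPKM (15.4), had a log2 fold change of -0.091 (adjusted p = 0.621). At this depth a fall of the size of the pathway median could not be told from 0 in Rpp30, Rpp38, Pop5, Pop7 and Rpp25l, whose intervals hold both.

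Of the exonucleases and other nucleases, 5 of 6 were below 0 and 0 were called in edgeR's test, its exact test, DESeq2 or limma-voom. At an unadjusted p under 0.05, Xrn2 and Rexo1 passed downward and Rexo2 upward. Xrn2, the nuclear 5′ to 3′ exonuclease that trims precursors of ribosomal RNA, was at 141 and 139 CPM with DI and 154 and 158 CPM with vehicle (log2 fold change -0.15, 95% interval -0.25 to -0.046, adjusted p = 0.0688). Its cytoplasmic counterpart Xrn1 had a log2 fold change of -0.095 (adjusted p = 0.348). Rexo2, a mitochondrial and cytosolic oligoribonuclease, was the single member with both RANKL+DI libraries above both RANKL+Veh libraries, at 87.7 and 86.4 CPM against 74.7 and 78.4 CPM. The log2 fold change of Rexo2 was 0.19 (SE 0.0550, adjusted p = 0.0785), and it dropped to 0.082 when libraries were scaled by their totals alone. The other members above 0 were Sbds (0.082), Pop7 (0.046) and Nxf1 (0.017), all with overlapping groups and all below 0 under scaling by the totals alone.

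In nuclear maturation of the large subunit, 3 of 7 members fell and the median was -0.18. Gnl3 (ENSMUSG00000042354, chr14:31012434-31019089 on the minus strand of GRCm38) encodes nucleostemin, a nucleolar GTPase that is abundant in stem and tumour cells. It was at 64.1 and 63.6 CPM with DI and 88.9 and 89.8 CPM with vehicle, close agreement within each group. The log2 fold change of Gnl3 was -0.49 (SE 0.0526, adjusted p = 0.00373). Its paralogue Gnl3l was at 43.3 and 46.5 CPM with DI and 46.7 and 52.7 CPM with vehicle, a log2 fold change of -0.15 with a 95% interval of -0.35 to 0.060, beside -0.61 to -0.36 for Gnl3. Mdn1, or midasin, the giant AAA ATPase that strips assembly factors from pre-60S particles, was at 84.4 and 90.1 CPM with DI and 107 and 116 CPM with vehicle. Mdn1 fell with a log2 fold change of -0.36 (SE 0.0635, adjusted p = 0.0173), and without RANKL+Veh replicate 2 its adjusted p was 0.0778. Nvl, the homologue of the yeast ATPase Rix7, fell from 72.2 and 71.9 CPM to 62.4 and 60.3 CPM (log2 fold change -0.23, adjusted p = 0.0481), a call that was lost without any 1 of the 4 libraries (adjusted p up to 0.166). The GTPases Gnl2 and Gtpbp4 and the RNA-binding Rbm28 lay between -0.18 and -0.086 and were not called.

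The cytoplasmic steps had a median of -0.080, and 2 of 8 members fell. The median was -0.14 without RANKL+DI replicate 1 and -0.19 without RANKL+Veh replicate 1. Riok1, an atypical kinase of the late pre-40S particle, was at 25.1 and 23.3 CPM with DI and 30.4 and 29.9 CPM with vehicle (log2 fold change -0.32, adjusted p = 0.0467). Eif6, which keeps new 60S subunits from joining 40S subunits too early, was at 84.8 and 77.2 CPM against 96.3 and 98.4 CPM (log2 fold change -0.26, adjusted p = 0.0429). Neither of the factors that release EIF6 was called. The GTPase Eftud1 was at 28.4 and 24.6 CPM with DI and 31.4 and 31.5 CPM with vehicle (-0.25, 95% interval -0.47 to -0.024), and its cofactor Sbds, mutated in Shwachman-Diamond syndrome, at 64.1 and 52.3 CPM against 54.4 and 55.5 CPM (0.082, 95% interval -0.17 to 0.34). Nob1, the endonuclease that makes the 3′ end of 18S rRNA, Lsg1 and Spata5 were each within 0.05 of 0 on the log2 scale with overlapping groups. Ak6 shares 56.5% of its exon length with Taf9 on the same strand, and the entry named Chd1 spans both the remodeller gene Chd1 and the kinase gene Riok2, which gives it its place in the pathway, so neither value belongs to 1 gene. The Chd1 entry had a log2 fold change of -0.043 (adjusted p = 0.617). Without Chd1, Ak6, Csnk2a1 and Tbl3, 19 of 66 members fell and the median was -0.19. Riok1 lost its call without any 1 of the 4 libraries (adjusted p up to 0.201), and Eif6 without RANKL+DI replicate 2 or either RANKL+Veh replicate (up to 0.152).

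Among the export factors, 5 of 10 members were tested, with a median of -0.20, 4 of them with separated groups. Ran, the GTPase that drives nuclear transport, was the member with the highest level per length, 98.4 and 98.1 FPKM (fragments scaled by gene length and library total) with DI and 121 and 119 FPKM with vehicle. In CPM it was at 293 and 291 with DI and 334 and 328 with vehicle, the smallest fall among the 19 called members and the smallest SE among the 70 tested ones (log2 fold change -0.18, SE 0.0366, adjusted p = 0.0258). Ran lost its call without any 1 of the 4 libraries (adjusted p up to 0.106), and a processed pseudogene matches 26.9% of its transcript. Nmd3, the adaptor of 60S export, stayed just short of the threshold at 43.5 and 41.6 CPM against 51.9 and 49.95 CPM (log2 fold change -0.26, adjusted p = 0.0511), as did the exportin Xpo1 at 228 and 247 CPM against 265 and 283 CPM (-0.20, adjusted p = 0.0658). Nxt1 was at 17.6 and 19.04 CPM against 23.4 and 20.95 CPM (-0.27, adjusted p = 0.131), while its partner Nxf1, chiefly an mRNA export receptor, had overlapping groups and a log2 fold change of 0.017 (95% interval -0.21 to 0.24).

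**Figure D2:**
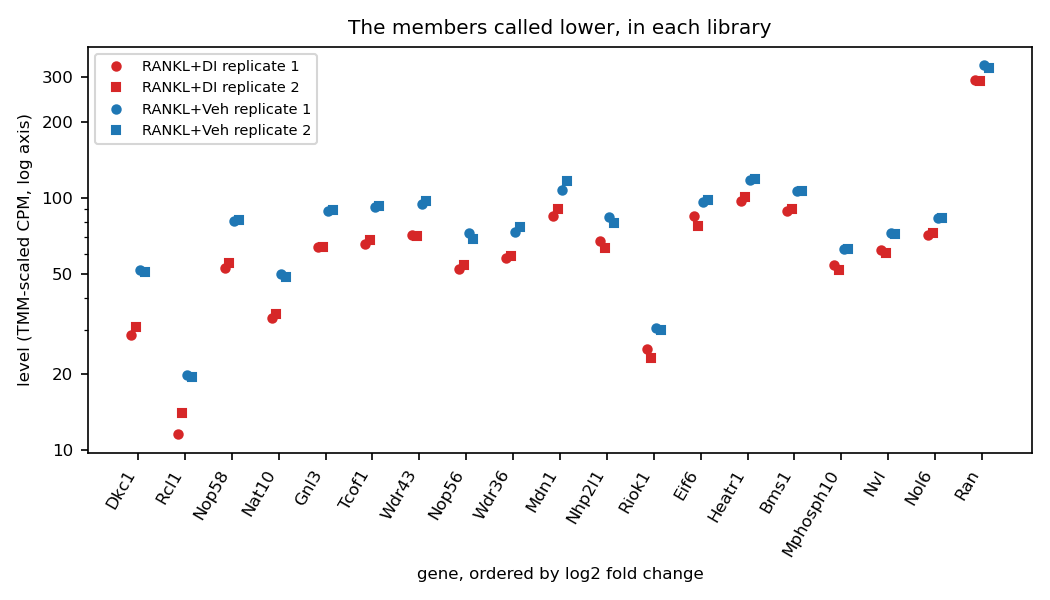
Level of the 19 members that fell, in TMM-scaled CPM on a log axis, with 1 point per library (red RANKL+DI, blue RANKL+Veh), ordered by log2 fold change. Every red point lies below both blue points of its gene, from Dkc1 (28.5 and 30.8 against 51.8 and 50.8 CPM) to Ran (293 and 291 against 334 and 328 CPM).

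The calls differed in how far they depended on the fit. Dkc1, Nop58, Nop56, Wdr43, Gnl3, Nat10 and Tcof1 were called in each of the 13 alternative fits, which left out each library in turn and changed the scaling, the filter and the test. Their highest adjusted p lay between 0.0126 for Dkc1 and 0.0445 for Nop56. Across complexes, these 7 genes came from box C/D, box H/ACA, UTP-A, the 90S factors and nuclear 60S maturation. With all 4 libraries, edgeR's exact test lost the calls of Bms1, Eif6, Heatr1, Mphosph10, Nol6, Nvl, Ran and Riok1. The fit with the replicate number as a block lost those of Eif6, Mphosph10, Nol6, Nvl, Ran and Riok1. The DESeq2 Wald test lost those of Mphosph10, Nol6, Nvl and Riok1.

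Per length, the tested members ranged from 0.673 FPKM for the exonuclease gene 2610020H08Rik, later named Rexo5, to 109 FPKM for Ran, with a median of 10.003 FPKM. Within complexes, the deposited FPKM values of subunits that form 1 particle differed widely. They depend on the gene lengths used, which for some members, including Nop56 and Imp4, exceed the span of the gene. A difference in FPKM between genes is therefore not shown to be a difference in mRNA level. In box H/ACA, Nhp2 stood at 50.3 FPKM and Gar1 at 3.05 FPKM. In box C/D, Fbl stood at 34.8 FPKM and Nop56 at 4.08 FPKM. In CPM the order was reversed. Nop56 was at 52.3 and 54.1 CPM with DI and 72.85 and 68.7 CPM with vehicle. Fbl was at 36.8 and 39.5 CPM with DI and 45.9 and 39.1 CPM with vehicle. Summed over the 70 members, the deposited FPKM values were 915 and 925 with DI and 1120.0 and 1116 with vehicle, a ratio of 0.823. With library sizes scaled by TMM the ratio was 0.884.

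Some members could not be tested, mostly duplicated genes. Rpp25, which pairs with Pop7, was counted 4 and 5 times under DI and 7 and 4 times under vehicle, while its paralogue Rpp25l was expressed at 8.27 and 7.57 CPM against 8.54 and 9.73 CPM (-0.20, adjusted p = 0.368). The fibrillarin paralogue Fbll1, the export gene Nxf3 and 1700009N14Rik, an intronless Ran-like gene, had 0 counts in every library. A count of 0 allows up to 3 counts, and this limit covers counting error only. Under DI, Nxf2 was counted 10 and 5 times, Nxf7 0 and 5 times and Rasl2-9, a retrogene copy of Ran, 8 and 6 times. Under vehicle, Nxf2 was counted 4 and 6 times, Nxf7 0 and 2 times and Rasl2-9 3 and 8 times. In the pair of Utp14a and its retrogene Utp14b, both were below 0 and uncalled. Utp14a was at 46.1 and 42.1 CPM against 48.6 and 48.9 CPM (-0.14, adjusted p = 0.243), and Utp14b at 15.7 and 17.5 CPM against 19.5 and 19.3 CPM (-0.22, adjusted p = 0.195).

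Several members carry snoRNA genes, the guides of the same pathway, inside their own bodies on the same strand. In the GENCODE M21 annotation these hosts were Dkc1 with 1 snoRNA gene, Gnl3 with 3, Nop56 with 5, Nop58 with 4 and Wdr43 with 3. All 5 fell, with a median log2 fold change of -0.49, whereas 14 of the other 65 members fell, with a median of -0.18. Outside the pathway, 47 of 249 tested genes with a snoRNA gene (18.9%) fell and 15 rose, with a median of -0.073, and 7.37% of genes without one fell. These shares are given without a test. The levels of the snoRNAs themselves were not analysed here. Those of Gnl3, and some of those of Nop56 and Nop58, lie within annotated exons of the host. Whether reads from them add to the host counts was not tested. To show what the hosts carry, 1 box C/D snoRNA of each of 4 hosts is given from GENCODE, 5′ to 3′, with box C (TGATGA) and box D (CTGA) in capitals. Snord110 lies at chr2:130275506-130275573 in Nop56, Snord11 at chr1:59704790-59704873 in Nop58 and Snord92 at chr17:71631281-71631365 in Wdr43, all on the plus strand, and Snord69 at chr14:31014287-31014366 in Gnl3 on the minus strand (GRCm38).
Snord110: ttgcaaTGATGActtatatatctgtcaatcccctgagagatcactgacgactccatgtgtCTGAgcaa
Snord11: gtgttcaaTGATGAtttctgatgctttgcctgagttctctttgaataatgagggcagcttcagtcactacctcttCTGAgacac
Snord92: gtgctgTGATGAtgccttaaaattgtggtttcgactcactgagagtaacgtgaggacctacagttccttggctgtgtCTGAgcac
Snord69: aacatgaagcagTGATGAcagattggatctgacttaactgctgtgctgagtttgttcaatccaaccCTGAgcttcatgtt

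**Figure D3:**
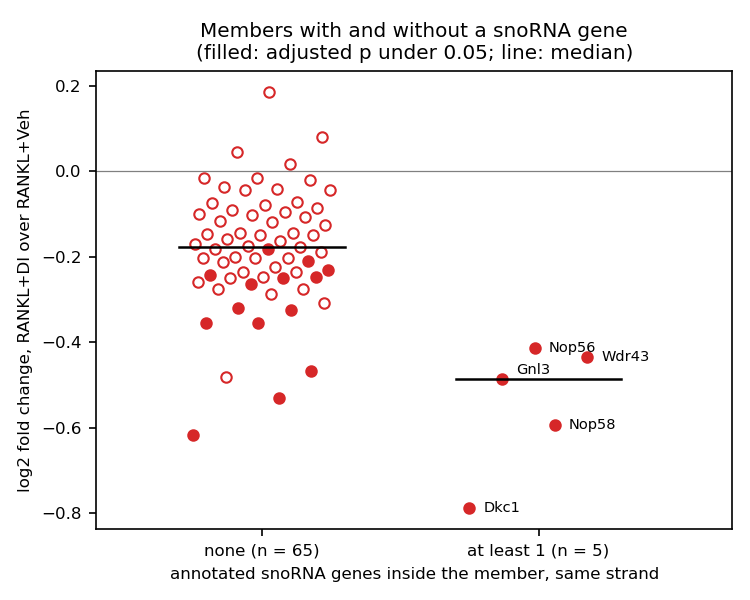
Log2 fold change of the 70 tested members, RANKL+DI over RANKL+Veh, split by whether GENCODE M21 places at least 1 snoRNA gene inside the member on its strand, with filled points at an adjusted p under 0.05 and lines at the medians. The 5 hosts are all filled and centre on -0.49, and the 65 others centre on -0.18.

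Promoters were read from RefSeq (GRCm38.p6) for 57 of the 70 tested members, from 250 bases before to 50 bases after the start, and searched on both strands. The E-box CACGTG, the sequence that MYC and other bHLH factors bind, was in 21.1% of the members' windows, in 10.6% of those of tested genes and in 7.15% of all 32851 windows of the table. Within the pathway, 3 of 15 called members (20.0%) and 9 of 42 uncalled members (21.4%) held it, and 11.3% of all tested genes called lower did. An ETS sequence, CCGGAAGT, was in 22.8% of members, 9.09% of tested genes and 3.89% of all windows. It was in 3 of the 15 called members (20.0%), 10 of the 42 uncalled ones (23.8%) and 6.73% of all tested genes called lower. The core TGACNNNGC of the antioxidant response element, bound by NRF2, was in 14.04% of members and 14.97% of tested genes, in 0 of the 15 called members and 8 of the 42 uncalled ones (19.05%), and in 16.4% of all tested genes called lower. A match is a description of letters, not of binding. The called members with an E-box were Wdr43, Mdn1 and Ran, and their matches (capitals) lie 17 bases after, 38 bases after and 118 bases before the start, at chr17:71616220-71616249, chr4:32657145-32657168 and chr5:129020026-129020055 on the plus strand. These 3 windows were chosen after the values were seen.
Wdr43: cgcccgggcgaaCACGTGgctgccgcggag
Mdn1: gaattccttcacCACGTGtgtgtc
Ran: gctcggccggccCACGTGacccgccgcccc

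The called members with the smallest p, Dkc1 and Nop58, held none of the searched sequences in the bases before their start that lie outside annotated exons. For Dkc1 these are 250 bases at chrX:75095604-75095853 and for Nop58 215 bases at chr1:59684756-59684970, both on the plus strand. Gnl3, the next called member by p, also held none in its window. It is not printed, because too short a stretch before its start lies outside annotated exons.
Dkc1: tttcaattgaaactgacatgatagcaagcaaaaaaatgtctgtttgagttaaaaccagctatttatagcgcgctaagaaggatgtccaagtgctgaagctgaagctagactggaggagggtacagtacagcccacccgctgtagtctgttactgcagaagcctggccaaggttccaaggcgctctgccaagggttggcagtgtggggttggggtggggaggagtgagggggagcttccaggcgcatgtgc
Nop58: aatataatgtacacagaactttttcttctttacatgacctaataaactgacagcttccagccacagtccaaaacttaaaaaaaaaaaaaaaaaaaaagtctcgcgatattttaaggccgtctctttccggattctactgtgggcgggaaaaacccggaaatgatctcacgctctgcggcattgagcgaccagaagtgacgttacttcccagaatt

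Related genes that KEGG does not place in the pathway were read from the same fit. Of 66 other nucleolar and assembly factors, 58 were below 0, 17 fell and 0 rose (35 and 0 at an unadjusted p under 0.05), with a median of -0.21. Among these, Krr1, named after its values were seen, differed widely between the vehicle libraries. It was at 36.6 CPM in RANKL+Veh replicate 1 and 100.5 CPM in RANKL+Veh replicate 2, beside 90.1 and 90.4 CPM with DI. The number that fell was 11, 10, 10 and 7 with RANKL+DI replicate 1, RANKL+DI replicate 2, RANKL+Veh replicate 1 and RANKL+Veh replicate 2 left out, and 1 rose in the last of these. Nucleolin (Ncl), an abundant RNA-binding protein of the nucleolus, was at 568 and 560.5 CPM with DI and 788 and 790.5 CPM with vehicle (log2 fold change -0.48, SE 0.0327, adjusted p = 0.000916). Pa2g4, a pre-60S factor, and Nolc1, a snoRNP chaperone, had log2 fold changes of -0.58 and -0.61 (adjusted p = 0.000880 and 0.00373), and nucleophosmin (Npm1) one of -0.31 (adjusted p = 0.0132). Of 16 genes of RNA polymerase I and its factors, 4 fell and 0 rose (4 and 0 at an unadjusted p under 0.05), with a median of -0.14. With 1 library left out, 2 fell, or 1 without RANKL+Veh replicate 1. The catalytic subunits Polr1a and Polr1b had log2 fold changes of -0.37 (adjusted p = 0.00980) and -0.44 (adjusted p = 0.0172), and the SL1 subunit Taf1d -0.42 (adjusted p = 0.0197). Ubtf, which marks active ribosomal DNA, was at -0.19 (adjusted p = 0.0445), and Rrn3, which recruits the polymerase, at -0.065 (adjusted p = 0.581). Of 13 genes of the RNA exosome, which trims the 3′ ends of the precursors, 2 fell, Dis3 (-0.33, adjusted p = 0.0226) and Exosc5 (-0.51, adjusted p = 0.0242), and Exosc8 was at -0.31 (adjusted p = 0.109). Of 16 snoRNA host genes written down as a list, 3 fell, Eef1b2 (-0.30), Snhg12 (-0.60) and Gas5 (-0.38), with a median of -0.29. That list had 1 call without either RANKL+Veh replicate, and 6 with edgeR's exact test. Among the genes named outside the pathway, Ubtf, Dis3 and Snhg12 lost the call without any 1 of the 4 libraries (adjusted p up to 0.169, 0.0865 and 0.184). Taf1d and Gas5 lost it without RANKL+DI replicate 1 or either RANKL+Veh replicate (up to 0.0778 and 0.162), Exosc5 without RANKL+DI replicate 2 or either RANKL+Veh replicate (up to 0.0890) and Polr1b without RANKL+DI replicate 2 or RANKL+Veh replicate 1 (up to 0.0816).

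**Figure D4:**
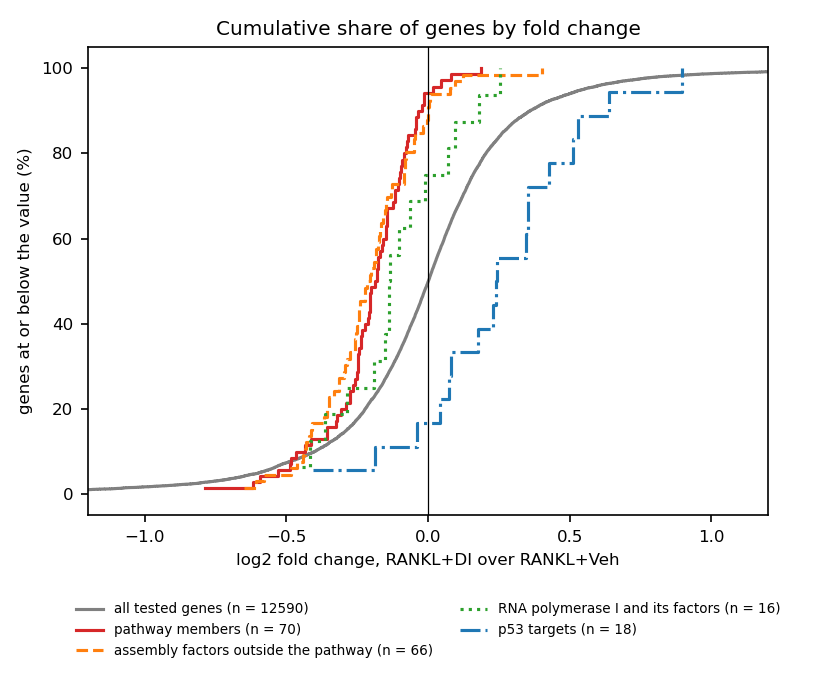
Cumulative share of genes by log2 fold change, RANKL+DI over RANKL+Veh, for all 12590 tested genes, the 70 pathway members, 66 assembly factors outside the pathway, 16 genes of RNA polymerase I and 18 p53 targets. The curves of the members and of the other assembly factors run left of that of all genes around their medians of -0.19 and -0.21, and the p53 targets run to the right of it, with a median of 0.24.

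The 13 upstream regulators of ribosomal RNA synthesis went both ways, with 6 below 0, 6 separated downward, 6 separated upward and a median of 0.042, which was -0.061 with scaling by the library totals alone, -0.046 without RANKL+DI replicate 1 and -0.0041 without RANKL+Veh replicate 2. In edgeR's test 3 fell and 0 rose, and at an unadjusted p under 0.05 these numbers were 5 and 3. The exact test, DESeq2 and limma-voom also called 3 lower and 0 higher. Myc was at 26.6 and 24.2 CPM with DI and 51.5 and 41.2 CPM with vehicle (log2 fold change -0.87, SE 0.121, adjusted p = 0.00778). Rptor, a subunit of mTORC1, had a log2 fold change of -0.26 (adjusted p = 0.0134), and Trp53, which encodes p53, -0.31 (adjusted p = 0.0162). Rptor lost its call without either RANKL+Veh replicate (adjusted p up to 0.0633) and Trp53 without RANKL+DI replicate 1 or either RANKL+Veh replicate (up to 0.0649), so that 1 gene of the list, Myc, was called lower without either RANKL+Veh replicate. The 3 genes higher at the unadjusted threshold, named after their values were seen, were Eif4ebp1 (0.31, adjusted p = 0.0765), a target of mTORC1, Rheb (0.13, adjusted p = 0.135), its activating GTPase, and Sirt7 (0.21, adjusted p = 0.159), a nucleolar deacetylase. Eif4ebp1 was called higher without RANKL+Veh replicate 1 (adjusted p = 0.0295). Of 18 p53 targets, 8 rose and 0 fell (10 and 0 at an unadjusted p under 0.05), led by Gdf15 (0.90, adjusted p = 0.00298), Cdkn1a (0.35, adjusted p = 0.00298) and Phlda3 (0.53, adjusted p = 0.00498). Of the same 18 targets, 3 were below 0. The groups were separated upward in 11 of them, separated downward in 2 and overlapping in 5. With scaling by the library totals alone, 5 p53 targets rose. Of 20 cell cycle genes, 19 fell, led by Ccnb2 (-0.76), Mcm6 (-0.52) and Bub1 (-0.68), and their summed level was 2419 and 2450 CPM with DI and 3353 and 3424 CPM with vehicle. The cell cycle list moved with the pathway, and its part in the lower level of the members was not tested.

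Markers of the cells in the culture moved too. Of 11 entries for macrophage markers, 6 rose and 3 fell, and their summed level was 28916 and 29703 CPM with DI and 23527 and 22685 CPM with vehicle, mostly Lyz2 (0.37, adjusted p = 0.00240). Itgam, which encodes the integrin CD11b, rose (0.57, adjusted p = 0.00186). A second entry of Itgam was at 196 and 176 CPM with DI and 157 and 177 CPM with vehicle, with overlapping groups. The lipopolysaccharide co-receptor gene Cd14 fell (-0.51, adjusted p = 0.00475). Without RANKL+Veh replicate 2, 5 rose and 1 fell, and without RANKL+DI replicate 1, 4 rose. Of 8 tested osteoclast markers, 5 fell, led by Mmp9 (-1.64), Ocstamp (-2.52) and Acp5 (-0.95), and 2 rose, Atp6v0d2 (0.27, adjusted p = 0.00623) and Itgb3 (0.56, adjusted p = 0.00815), which were named after their values were seen. The summed level of this list was 731 and 714 CPM with DI and 764 and 741 CPM with vehicle, most of it from Atp6v0d2, at 509 and 509 CPM with DI and 427 and 418 CPM with vehicle. Markers of B cells, of T and NK cells, of mast cells and basophils and of erythroid cells summed to at most 1.57 CPM in any library, and their 2 tested genes, Klrb1c (0.59, adjusted p = 0.517) and Gata2 (-0.0100, adjusted p = 0.994), were not called. The neutrophil list summed to 247 and 244 CPM with DI and 125 and 110.2 CPM with vehicle, nearly all of it from Mmp8 (1.12, adjusted p = 0.000845), while S100a8 (0.51, adjusted p = 0.161) and Ngp (-0.65, adjusted p = 0.198) were not called and Ly6g was at 0 counts in every library. The stromal list summed to between 41.6 and 51.7 CPM, and 0 of its 5 tested genes passed the edgeR test, also at an unadjusted p under 0.05 and with the other tools. The lowest p-values of the stromal list were those of Col1a1 (-0.17), Col1a2 (-0.16) and Col3a1 (-0.43), with adjusted p of 0.279, 0.313 and 0.453. The part of these cell types in the result was not tested.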

How the data were processed

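RNA of BMMs was sequenced from 2 RANKL+DI and 2 RANKL+Veh libraries, prepared with an mRNA library kit and read in pairs, and samples were grouped by their labels. The deposited table holds raw counts for each gene and the authors' FPKM values, which follow from the counts, gene lengths and library totals, together with the KEGG pathways of each gene. A second deposited table repeats these values and was not used. The submitters' processing notes name the build as GRCm38 (mm10). The aligner and the counter are not given in the sources used here, and nothing says that reads were counted by strand.

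Counts were tested in R 4.3.3 with the quasi-likelihood test of edgeR 4.0.16, using TMM factors (0.963 and 0.967 for RANKL+DI, 1.04 and 1.04 for RANKL+Veh), its default filter on low counts and Benjamini-Hochberg adjustment over 12590 genes. Members were read from this fit across the whole table. Libraries of a group differed by more than counting noise (chi-square per degree of freedom 6.20 and 6.32), and the common biological coefficient of variation was 0.0905. Intervals are 95% intervals of the fit. Levels between genes were compared in the deposited FPKM. The lengths behind these values exceed the span of the gene for some members, including Nop56 and Imp4, so such comparisons are uncertain. The steps were tested on simulated data with changes of at least 0.5 on the log2 scale. Most members changed by less, so the simulation does not cover falls of their size. The alternatives were DESeq2 1.42.0, limma 3.58.1 (voom), edgeR's exact test, other scalings, filters and thresholds, the replicate number as a block, and each library left out.

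The members, their complexes, the 15 lists outside the pathway and the rule for named genes were chosen with earlier results of these data known. The complexes of 1700009N14Rik, 2610020H08Rik and the Chd1 entry were assigned after the files were seen. Named were the members called at an adjusted p under 0.05, and in each complex the members with the highest FPKM and the lowest p. Paralogue pairs, members that failed the filter and the 3 lowest-p genes of each list were also named. So were Myc, Ncl, Npm1, Polr1a, Polr1b, Rrn3 and Ubtf. Others were added to describe a complex after their values were seen. Each list served as a description, with no test of the list. Exon overlaps, snoRNA genes and copies (at least 95% identity over at least 20% of a transcript) came from GENCODE M21, in which all 77 identifiers were found, 58 at the deposited start and end. Promoters came from RefSeq (GRCm38.p6).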

Additional observations from a re-analysis of the deposited data

How the results depend on the processing

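Over the 13 alternative fits the number of members called ranged from 8 to 37, and no member was called higher. It was 12 with edgeR's exact test, 37 with scaling by library size only and between 8 and 12 with 1 library left out, and 6 at an adjusted p under 0.01, 29 under 0.1 (28 lower, 1 higher) and 4 with an absolute log2 fold change over 0.5 added. The number of genes called, 1868, was between 1087 and 1394 with 1 library left out (1120 without RANKL+Veh replicate 1, 1087 without RANKL+Veh replicate 2), 723 at 0.01 and 748 with the fold threshold. The median of the members was -0.29 with library size only, where that of all genes was -0.10, -0.19 with upper quartile factors and between -0.20 and -0.18 with 1 library left out. With library size only, the medians were -0.29 for MPP10, -0.32 for RNase P/MRP, -0.35 for UTP-A, -0.28 for UTP-B, -0.18 for UTP-C and casein kinase 2, -0.47 for box C/D, -0.25 for box H/ACA, -0.18 for cytoplasmic maturation, -0.24 for nucleases, -0.28 for nuclear 60S maturation, -0.31 for export and -0.35 for the other 90S and 40S factors. With upper quartile factors, UTP-B moved to -0.19 and nuclear 60S maturation to -0.18, and without the filter on low counts export moved to -0.082.

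With 1 library left out, the medians ranged from -0.21 to -0.13 for MPP10, -0.28 to -0.17 for RNase P/MRP, -0.28 to -0.18 for UTP-A, -0.18 to -0.16 for UTP-B, -0.19 to -0.026 for UTP-C and casein kinase 2, -0.41 to -0.33 for box C/D, -0.22 to -0.17 for box H/ACA, -0.19 to -0.074 for cytoplasmic maturation, -0.16 to -0.12 for nucleases, -0.23 to -0.20 for nuclear 60S maturation, -0.20 to -0.17 for export and -0.28 to -0.22 for the other 90S and 40S factors. Of the 70 tested members, 14 changed sign with a library left out, and 0 of these had been called. They ranged from -0.091 to 0.0057 (Chd1), -0.19 to 0.027 (Csnk2a2), -0.29 to 0.075 (Gar1), -0.027 to 0.00098 (Imp4), -0.099 to 0.065 (Lsg1), -0.19 to 0.12 (Nob1), -0.10 to 0.031 (Nop10), -0.11 to 0.14 (Nxf1), -0.35 to 0.023 (Pop5), -0.18 to 0.31 (Pop7), -0.19 to 0.0088 (Rpp30), -0.15 to 0.014 (Rrp7a), -0.071 to 0.23 (Sbds) and -0.088 to 0.058 (Spata5). With library size only, Nxf1 was at -0.086, Pop7 at -0.058 and Sbds at -0.022. Of 43 genes of the other lists that were refitted, Col3a1 ranged from -0.78 to 0.019 and Gata2 from -1.12 to 0.64 with a library left out, and Gata2 was at 0.018 with DESeq2 and 0.0055 with the exact test. The summed FPKM of the members with DI over vehicle, 0.823, was 0.884 with TMM-scaled library sizes. Of the 16 listed snoRNA host genes, of which 3 were called, 6 were called with edgeR's exact test and 2 with DESeq2. The cause of these shifts was not tested, apart from the scaling itself.

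The replicate numbers are not shown to pair the samples: same-numbered libraries had a correlation of deviations of -0.030 over 2 pairs. With the replicate number as a block, 14 members were called, 13 of them shared with the fit without it, and 1389 genes were called. With 2 libraries per group, 2 residual degrees of freedom were left before the moderation across genes. Falls near the median of the members, -0.19, were called in some genes and missed in others of the same size, including genes of higher count: Nol6 (-0.21, 5520 counts over the 4 libraries) was called and Xpo1 (-0.20, 18205 counts) was not, so an uncalled member is not shown to be unchanged. No outlier check was run with 2 libraries per group. Some listed genes differed widely between the vehicle libraries, such as Aen (14.7 and 48.0 CPM) and C1d (25.7 and 63.0 CPM).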
